A study of Mus musculus with 8 samples.

Results

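The genes described here belong to phosphate, pyrophosphate and mineralization. Most move phosphate or pyrophosphate across the cell membrane, or make or cut pyrophosphate outside the cell, and Phex is a peptidase. The list held 7 mouse genes, Alpl, Ank, Enpp1, Slc20a1, Slc20a2, Slc34a2 and Phex, and they were picked by symbol from the probes that the platform annotation names. It named a probe for 6 of the 7, of 16593 genes named on the array, with 1 probe each. Enpp1 had no probe under its symbol and was not analysed here.

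Mineral forms when phosphate and calcium leave solution onto a matrix, and pyrophosphate hinders this. Enpp1 makes pyrophosphate from ATP outside the cell, the membrane protein Ank releases it (with ATP) from the cell, and Alpl, the tissue-nonspecific alkaline phosphatase, cuts it into phosphate. Slc20a1 (Pit1), Slc20a2 (Pit2) and Slc34a2 are sodium-coupled phosphate importers. Phex is a membrane peptidase of bone cells and odontoblasts whose loss causes X-linked hypophosphatemia. In the incisor, enamel reaches its final hardness during the maturation (Mat) stage, when matrix proteins are removed and crystals thicken.

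Tissue was taken from the Mat region of lower incisors of 10 wk old C57BL/6 mice. Knockout (KO) mice carried floxed Med1 on both alleles (Med1 fl/fl) and a Cre transgene driven by the Krt14 promoter, so removal of the coactivator Med1 was directed at Krt14-expressing epithelia and not at other cells of the tissue. Control (CON) mice were littermates with the same floxed alleles and no Cre. KO incisors grow hairs and lack enamel, and CON incisors form enamel. Everything lying between bone and dentin was dissected, tissue of 3 mice was combined, and RNA was measured on Illumina MouseRef-8 bead arrays, 4 KO and 4 CON. Whether each array had its own pool of mice is not clear from the labels. The p-values then cover only the spread between these arrays, and this spread may be technical.

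Mean intensity was 550.8 to 811.9 on KO arrays and 595.5 to 696.5 on CON arrays, and 12565 to 13134 of 25697 probes were detected on KO arrays and 11554 to 12513 on CON arrays. Med1 itself averaged 7.54 on KO arrays and 8.30 on CON arrays on the log2 scale, a difference of -0.76 ± 0.13 (SE, limma adjusted p = 0.00075), from 1 tested probe whose place relative to the deleted exons is not known here. The groups differed widely. Of 12838 probes tested 59.7% passed a 5% threshold, 37.3% lower in KO and 22.4% higher, and 54.6% had groups that did not overlap. The median difference over tested probes was -0.14. It was 0.02 when arrays were scaled by cyclic loess, and the share of called probes that were higher in KO was then 56.7% in place of 37.5%. The tissue held several cell types. The osteoblast and odontoblast markers Dspp and Dmp1 were at background on all 8 arrays, whereas Bglap and Ibsp of the same list were bright. The ameloblast markers Ambn and Klk4 were bright on all 8 arrays as well, so the labelled dental epithelium was present in both groups.

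Promoter sequences are shown for the 4 genes with a called difference whose windows were in the table used, because members that moved in opposite directions can be set side by side there. Each is the 250 bases before an annotated RefSeq start (GRCm38.p6), 5′ to 3′ on the gene's strand, and capitals mark motifs read on both strands. The letters GGGCGG stood for a GC box. The box named CCAAT was searched by those letters, and overlapping matches were counted. The TATA box was searched as TATAAA. For the half-site of nuclear receptors the letters were AGGTCA. Alpl has 2 annotated starts, at chr4:137796385-137796634 and, further into the gene, chr4:137766476-137766725, both on the minus strand. The Ank window is chr15:27466427-27466676 on the plus strand, that of the first of the Slc20a1 starts chr2:129198523-129198772 on the plus strand, and that of Phex chrX:157415287-157415536 on the minus strand.
Alpl, first start: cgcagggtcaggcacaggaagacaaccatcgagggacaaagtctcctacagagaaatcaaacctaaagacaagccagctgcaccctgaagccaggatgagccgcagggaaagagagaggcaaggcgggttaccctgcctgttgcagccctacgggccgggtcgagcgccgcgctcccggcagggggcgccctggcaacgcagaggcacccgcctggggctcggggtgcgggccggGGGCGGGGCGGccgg
Alpl, second start: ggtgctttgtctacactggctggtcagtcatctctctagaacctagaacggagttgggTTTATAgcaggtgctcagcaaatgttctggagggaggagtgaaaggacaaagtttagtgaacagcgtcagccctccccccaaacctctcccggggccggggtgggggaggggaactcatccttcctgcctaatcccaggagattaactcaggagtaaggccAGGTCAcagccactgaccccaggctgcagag
Ank: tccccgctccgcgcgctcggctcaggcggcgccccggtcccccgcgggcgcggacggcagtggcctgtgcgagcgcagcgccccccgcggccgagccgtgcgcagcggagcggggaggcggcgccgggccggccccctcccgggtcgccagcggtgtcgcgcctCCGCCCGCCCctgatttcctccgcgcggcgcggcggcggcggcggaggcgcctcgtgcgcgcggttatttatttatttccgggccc
Slc20a1: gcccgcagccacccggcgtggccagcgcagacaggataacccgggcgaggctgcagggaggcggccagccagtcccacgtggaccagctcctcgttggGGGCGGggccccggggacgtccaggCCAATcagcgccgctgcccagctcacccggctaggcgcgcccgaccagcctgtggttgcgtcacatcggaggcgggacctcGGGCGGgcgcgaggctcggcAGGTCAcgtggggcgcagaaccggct
Phex: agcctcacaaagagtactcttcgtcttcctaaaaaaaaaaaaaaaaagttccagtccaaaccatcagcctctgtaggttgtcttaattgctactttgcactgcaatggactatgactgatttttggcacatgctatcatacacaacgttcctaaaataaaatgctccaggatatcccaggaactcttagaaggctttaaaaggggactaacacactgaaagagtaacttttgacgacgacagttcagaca

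The promoter of Phex, the 1 gene of the list that rose, had 39.2% GC, 4 CpG and none of the motifs. That of Ank had 81.2% GC, 49 CpG and 2 overlapping GC boxes. The first start of Alpl had 68.4% GC and 2 overlapping GC boxes, and its second start 56% GC, a TATA box and a half-site. The first start of Slc20a1 had 75.2% GC, 2 GC boxes, a CCAAT box and a half-site, and its second start, not printed, 50.8% GC, 5 CpG, 1 GC box and a half-site. Slc34a2, whose groups overlapped, had 69.6% GC and none of the motifs, so these letters were missing from the promoters of both a called and an uncalled gene. Of 32851 windows of this length in the table, 32.7% held a GC box, 33.8% a CCAAT box, 12.4% a TATA box and 14% a half-site. A match is a string of letters and not a measured site.

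Of the 6 genes measured, 4 fell in KO tissue (Alpl, Ank, Slc20a1 and Slc20a2), Phex rose, and Slc34a2 did not pass the test. Their median difference was -0.62, against -0.14 over all tested probes. The counts of 4 lower and 1 higher of 6 stand beside 37.3% lower and 22.4% higher among all tested probes, and 5 of the 6 had groups that did not overlap, beside 54.6% of all. All 6 were tested, so no gene of the list with a probe was lost to the filter on dim probes. In bulk tissue, fewer cells of a type and less RNA per cell cannot be told apart.

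**Figure D1:**
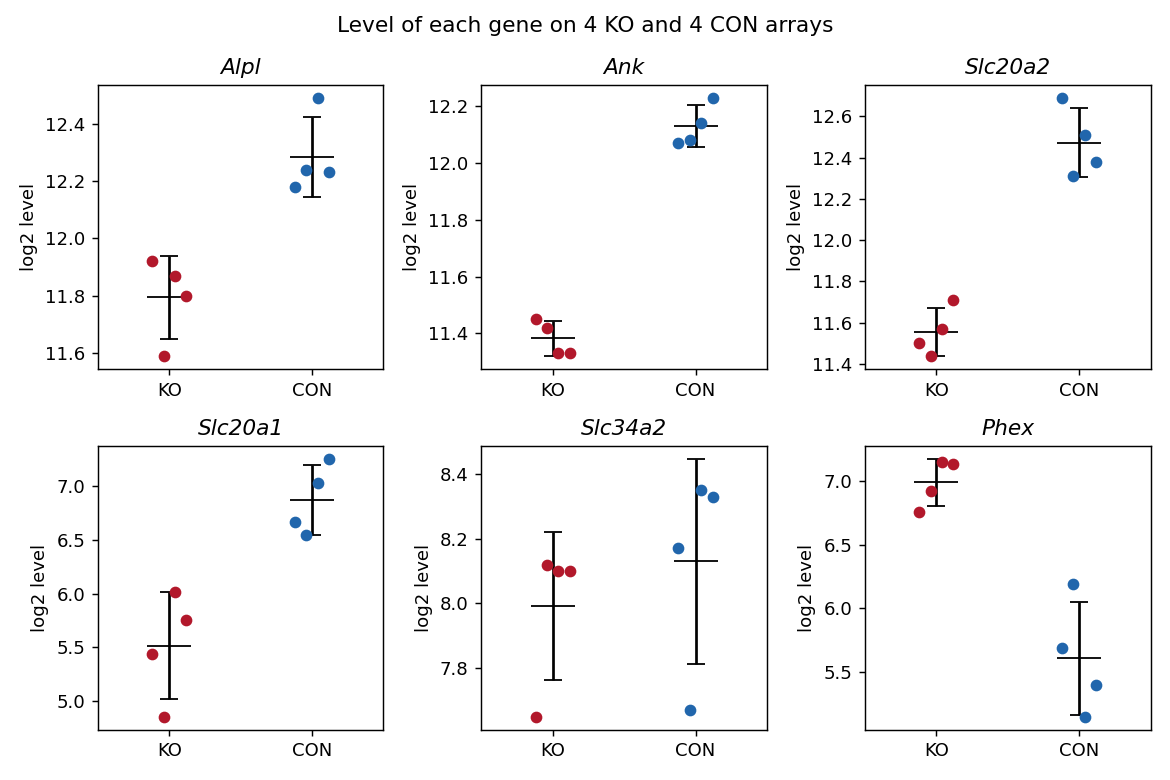
Log2 level of each of the 6 genes (vertical axis, its own range in each panel) on the 4 KO arrays (red) and the 4 CON arrays (blue), with the mean (horizontal line) and SD (bars). KO points lie below CON points for Alpl, Ank, Slc20a2 and Slc20a1, above them for Phex, and among them for Slc34a2.

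Alpl, which turns pyrophosphate into phosphate, stood at 11.92, 11.59, 11.87 and 11.80 on the KO arrays, against 12.18, 12.24, 12.49 and 12.23 on the CON arrays, as log2 levels. The brightest KO array was below the dimmest CON array by 0.26, the narrowest gap among the genes with separate groups. The mean was 11.80 ± 0.15 in KO and 12.28 ± 0.14 in CON (SD, n = 4 each). The difference of -0.49 ± 0.10 (SE, 95% interval -0.71 to -0.27), or 1.4-fold lower, had a limma adjusted p of 0.0018. As many as 2465 tested probes had a larger negative difference, so Alpl was well inside the range of falls seen across the array.

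Ank, which brings pyrophosphate out of the cell, had levels of 11.45, 11.42, 11.33 and 11.33 on the KO arrays, against 12.07, 12.08, 12.14 and 12.23 on the CON arrays. Both groups were tight and lay 0.62 apart. Ank averaged 11.38 ± 0.06 in KO and 12.13 ± 0.07 in CON (SD, n = 4 each), a difference of -0.74 ± 0.07 (SE, 95% interval -0.90 to -0.59) or 1.68-fold lower, with a limma adjusted p of 9.6e-06. It had the smallest SE of the 6 genes, and 1088 tested probes had a larger negative difference.

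Of the phosphate importers, Slc20a2 read 11.50, 11.44, 11.57 and 11.71 on the KO arrays and 12.69, 12.31, 12.51 and 12.38 on the CON arrays. No KO array reached the dimmest CON array. Its mean was 11.55 ± 0.12 in KO and 12.47 ± 0.17 in CON (SD, n = 4 each), and the difference was -0.92 ± 0.10 (SE, 95% interval -1.14 to -0.70), 1.89-fold lower, with a limma adjusted p of 2.8e-05. On the non-normalized scale the probe averaged 3100 intensity units in KO and 5790 in CON.

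Slc20a1, the other importer of this family, was much closer to background. It stood at 5.44, 4.85, 6.01 and 5.75 on the KO arrays, against 6.67, 6.55, 7.03 and 7.26 on the CON arrays. The groups were separate, but the KO levels were widely spread, and the second KO array missed the detection threshold (detection p of 0.0564 against negative control beads). The mean was 5.51 ± 0.50 in KO and 6.88 ± 0.33 in CON (SD, n = 4 each), a difference of -1.36 ± 0.24 (SE, 95% interval -1.90 to -0.83) with a limma adjusted p of 0.00081. The direction and call of Slc20a1 did not turn on how background was removed, but the size did. Without background correction the difference was -0.56, and the raw intensities were 145.6 to 157.1 in KO and 182 to 272.9 in CON.

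Slc34a2, an importer of epithelial surfaces, had levels of 7.65, 8.12, 8.10 and 8.10 on the KO arrays and 8.17, 7.67, 8.35 and 8.33 on the CON arrays. The groups overlapped, with 1 low array in each. The averages were 7.99 ± 0.23 in KO and 8.13 ± 0.31 in CON (SD, n = 4 each). The difference of -0.14 ± 0.16 (SE, limma adjusted p = 0.48) had a 95% interval of -0.50 to 0.23, which still holds falls as large as that of Alpl, and its sign turned under cyclic loess (0.05).

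Phex moved the other way. It stood at 6.76, 6.92, 7.15 and 7.13 on the KO arrays, against 5.69, 6.19, 5.15 and 5.40 on the CON arrays. Every KO array was above every CON array. All 4 KO arrays had a detection p under 0.01 against negative control beads, and so had 2 of the 4 CON arrays. The other CON arrays stood at 0.01 and 0.0163. The mean was 6.99 ± 0.18 in KO and 5.61 ± 0.44 in CON (SD, n = 4 each), a difference of 1.38 ± 0.20 (SE, 95% interval 0.94 to 1.82) or 2.6-fold higher, with a limma adjusted p of 2e-04. Without background correction the rise was 0.59, still past the threshold. Of all tested probes 813 had a larger positive difference.

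Markers of bone-forming cells, in which Phex is known to act, were higher in KO as well. Of 5 tested markers of the osteoblast and odontoblast list 4 rose and 1 did not pass, beside 22.4% higher among all tested probes. The summed linear level over the list was 31692 to 35231 on KO arrays and 22873 to 24475 on CON arrays. Bglap, a protein of bone matrix, averaged 13.32 in KO and 12.51 in CON (1.75-fold higher, limma adjusted p = 3.5e-06). The odontoblast marker Dspp and the osteocyte marker Dmp1 were not detected in either group. The part of such cells in the rise of Phex was not tested.

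For the 4 genes that fell, the marker lists of the epithelium did not all move with them. The counts of these lists stand beside 37.3% lower and 22.4% higher among all tested probes. The basal epithelium list summed to 63456 to 66127 on KO arrays and 73129 to 76548 on CON arrays, with 1 of 6 genes higher and 4 lower. Krt5, a keratin of basal cells, averaged 12.48 in KO and 13.46 in CON (1.97-fold lower). Krt14, whose promoter drives the Cre, averaged 15.26 in KO and 15.15 in CON, with groups that did not overlap (limma adjusted p = 0.13). Its sign turned under median scaling (-0.14), and it was called higher under a trend with robust variance and under the methods' t-test. The ameloblast list summed to 45991 to 51056 on KO arrays and 38091 to 40711 on CON arrays, with 3 of 5 genes higher and 0 lower, among them Klk4, the protease of maturing enamel (13.49 in KO and 12.84 in CON). Most of that sum was Ambn (14.97 in KO and 14.66 in CON). Both the count and the rise of Ambn depended on the processing. Under median scaling Ambn was higher by 0.06 in place of 0.31 and was not called, and it was not called under cyclic loess either. The enamel matrix gene Amelx, at -0.25, was called lower in 4 alternatives, namely median scaling (-0.44), no background correction, the deposited values, and a trend with robust variance.

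Lists for other cells were mostly higher in KO, beside 22.4% higher and 37.3% lower among all tested probes. The suprabasal epidermis list was furthest apart, with a sum of 46802 to 49247 on KO arrays against 2219 to 3098 on CON arrays. The muscle list summed to 24593 to 27952 on KO arrays and 6370 to 7650 on CON arrays, the macrophage list to 2272 to 2735 on KO arrays and 377 to 485 on CON arrays, and the osteoclast list to 10681 to 12868 on KO arrays and 4264 to 4499 on CON arrays. Nearly all of the osteoclast sum was the single gene Ctsk, named after its values were seen. Its log2 level was 13.36 to 13.63 on KO arrays and 12.01 to 12.09 on CON arrays. Every tested gene of these 4 lists was called higher, but Acp5, Dcstamp, Cd163 and Krt1 were detected on KO arrays alone and passed the filter through that group, so they could only be higher, and 3 further osteoclast genes and 1 further suprabasal gene were not detected on any array. Endothelial (3 of 5) and fibroblast (4 of 6) genes were higher without any lower, and salivary genes were split, 3 higher and 3 lower. Of the lower genes Dcpp2 was detected on CON arrays alone, and Dcpp1 and Dcpp3 on 4 CON arrays and 1 KO array each. Myh4 of the muscle list was detected on 4 KO arrays and 1 CON array. All of these met the filter through 1 group. What these cells contributed to the 6 genes was not tested.

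**Figure D2:**
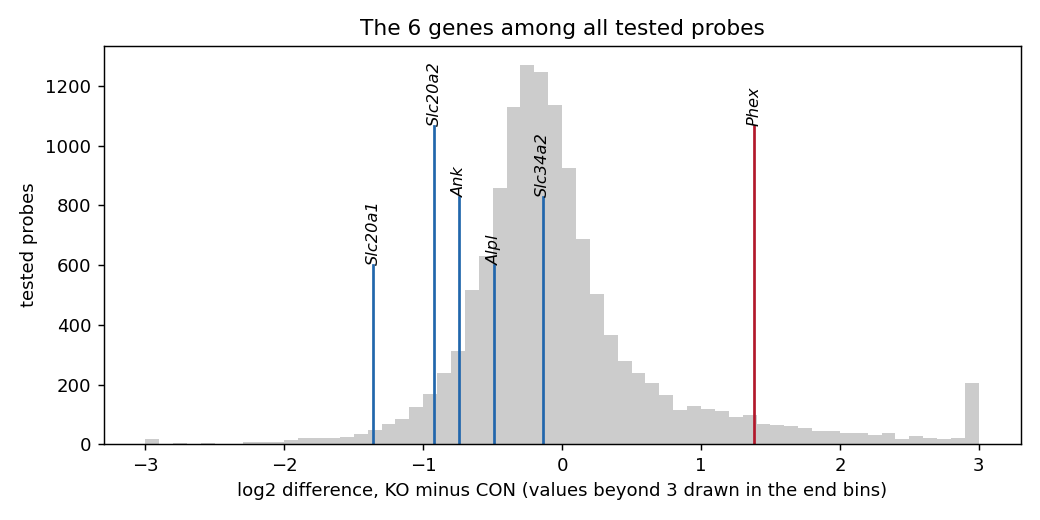
Number of tested probes (vertical axis) by log2 difference of KO minus CON (horizontal axis), with lines at the values of the 6 genes, blue for lower and red for higher in KO. Slc34a2 lies at the median of -0.14, Alpl, Ank, Slc20a2 and Slc20a1 lie to its left, and Phex lies in the right tail. Line heights only separate the names.

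The sizes of the changes were then compared with each other inside each array, as the change of one gene less that of another. This was done for 15 pairs after the levels had been seen, by a two-sided exact permutation test over the 8 arrays, with adjustment over the pairs. The smallest p such a test allows is 0.029, and the smallest adjusted p here was 0.048. It was reached by 9 pairs, all with groups that did not overlap. Phex against each of the other 5 genes made up 5 of these, with changes of -2.75 to -1.52 for the other gene less Phex, and -1.48 to -0.69 in the deposited values. For Alpl, Ank, Slc20a1 and Slc20a2 against Phex the outcome was settled beforehand, by groups that were separate in opposite directions. These pairs add nothing to the results of the single genes.

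Among the genes that fell, the mean fall of Slc20a2 exceeded that of Alpl by 0.43 ± 0.13 (SE) on the log2 scale (exact permutation adjusted p = 0.048). The same pair gave 0.42 in the deposited normalized values. Adjusted p-values of 0.048 in this comparison were under 5% only because the settled pairs of Phex tied at the smallest p as well. They are therefore not taken as evidence of a contrast, and the sizes are a description. For Slc20a2 and Slc20a1 against Slc34a2 the changes differed by -0.78 ± 0.18 and -1.23 ± 0.28 (exact permutation adjusted p = 0.048 each, with the same limit). In the deposited values these were -0.79 for Slc20a2 and -0.46 for Slc20a1, so the second was much smaller there. Alpl and Slc20a1 differed by 0.88 ± 0.25 after background correction but by 0.08 in the deposited values (exact permutation adjusted p = 0.57), so that contrast did not hold. For Ank against Alpl the change differed by 0.26 ± 0.11 (exact permutation adjusted p = 0.078) and for Ank against Slc20a2 by 0.18 ± 0.13 (0.31), neither past 5%. Of the 9 pairs 8 also had an adjusted p under 5% in the deposited values, where the settled pairs were included as well.

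**Figure D3:**
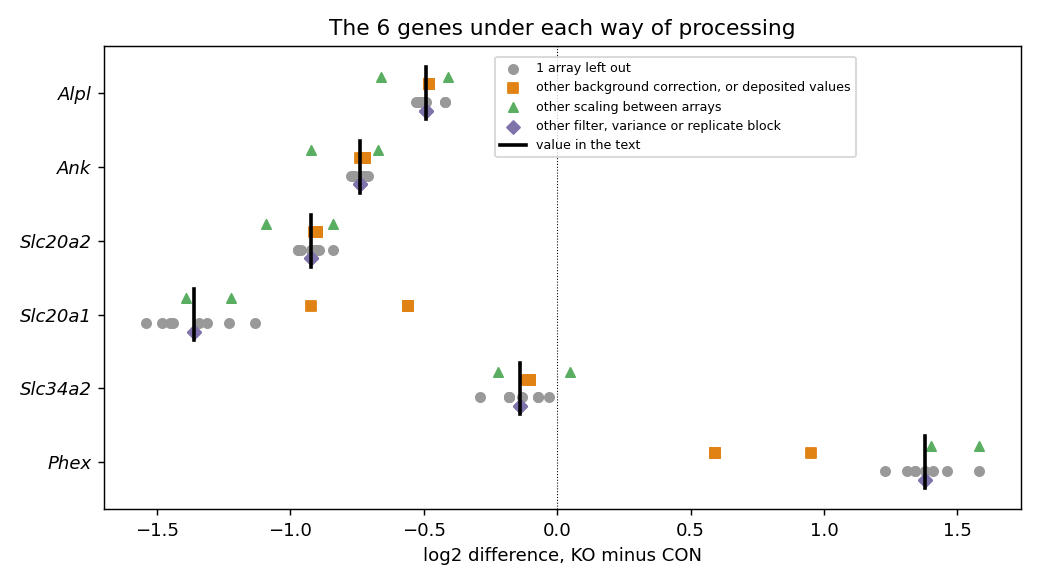
Log2 difference of KO minus CON (horizontal axis) of each of the 6 genes, as given in the text (black line) and under each alternative processing (symbols by kind). Alpl, Ank and Slc20a2 keep within -1.09 and -0.41, Slc20a1 and Phex shrink to -0.56 and 0.59 with other background corrections, and Slc34a2 crosses 0 under 1 scaling.

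Other genes of the same chemistry were listed in 6 groups with 62 genes, of which 34 were tested: 12 rose, 13 fell and 9 did not pass. Smpd3, counted among those that rose, was detected on KO arrays alone and could hardly have come out lower. Their median difference was -0.13, against -0.12 over the 9085 tested genes of the array, of which 2215 rose and 3317 fell. Changes in both directions were thus found in these lists as over the whole array. The counts of each list below stand beside 22.4% higher and 37.3% lower among all tested probes.

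Of the other phosphate transport genes 10 were listed and 4 tested. Xpr1, the exporter that lets phosphate out of cells, stood at 12.04, 11.94, 12.01 and 11.93 on the KO arrays, against 13.16, 13.19, 12.95 and 13.19 on the CON arrays. These values did not overlap, and the difference was -1.14 ± 0.08 (SE), 2.21-fold lower (limma adjusted p = 7.9e-07). Slc9a3r1, a scaffold that holds phosphate importers at the surface of kidney cells, rose 1.32-fold (limma adjusted p = 0.0015), by 0.24 in place of 0.40 under median scaling. The remaining 2 tested genes, named after their values were seen, did not pass. Slc25a3 (-0.15) was called lower in 5 alternatives, and Slc9a3r2 (0.19) was called higher in 4. Another 6, the renal importers Slc34a1 and Slc34a3 among them, were not detected on any array.

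Enzymes of pyrophosphate and of nucleotides outside the cell were split, 3 higher, 3 lower and 1 not past the threshold of 7 tested. Nt5e (CD73), which cuts AMP into adenosine and phosphate, read 11.62, 11.38, 11.39 and 11.49 on the KO arrays, against 10.01, 10.03, 9.96 and 10.28 on the CON arrays. It was 2.64-fold higher (limma adjusted p = 7.3e-07), and its second probe rose by 1.80 ± 0.13 (SE). Enpp6, a choline-specific phosphodiesterase, was 2.27-fold higher, and Entpd2, which removes phosphate from ATP, was 1.82-fold higher (limma adjusted p = 4.6e-05 and 2.7e-05). Enpp5 was 1.68-fold lower (limma adjusted p = 2.4e-05). The pyrophosphatases Ppa1 and Ppa2, named after their values were seen, were lower by 0.19 and 0.33 on the log2 scale. Their calls were lost in 7 and 8 of the alternatives. The other probes of Ppa2 were called lower as well, at -0.39 and -0.36 (limma adjusted p = 0.031 and 0.0018).

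The phosphatase and matrix vesicle list had 5 tested genes, 3 higher, 1 lower and 1 not past. In vesicles that bud from mineralizing cells, Smpd3 releases phosphocholine from sphingomyelin and Phospho1 frees phosphate from it. Smpd3 stood at 7.97, 7.65, 7.90 and 7.93 on the KO arrays, against 5.47, 5.30, 5.02 and 4.89 on the CON arrays, where it was not well above background, so that it passed the filter through KO arrays alone. It could thus hardly come out lower, so its place among the 3 higher genes is not counted as a test result. Against the higher of its own CON values and the dimmest detected probe of each array, the KO mean was 5.17-fold higher after background correction. That is no lower bound for other processing, since without background correction the log2 difference was 1.26 in place of 2.69. Phospho1 stood at 5.61, 5.24, 5.10 and 5.42 on the KO arrays, against 7.26, 7.25, 7.12 and 7.21 on the CON arrays.

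For Phospho1 only 2 KO arrays had a detection p under 0.01, and the fall of 1.87 ± 0.11 (SE) on the log2 scale was past the threshold (limma adjusted p = 2.5e-07). Without background correction its difference was -0.80. Anxa5, a calcium-dependent membrane binder of the vesicles, averaged 12.93 in KO and 12.37 in CON, 1.48-fold higher (limma adjusted p = 6.7e-05). The related Anxa2 was 1.24-fold higher, a call that median scaling ended (limma adjusted p = 0.15).

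Alkaline phosphatase needs zinc and a GPI anchor, and vitamin B6 phosphate is one of its substrates. Of 9 tested genes of these steps 2 rose, 4 fell and 3 did not pass. Pigo, which adds to the GPI anchor the group that is joined to the protein, averaged 9.45 in KO and 9.98 in CON, 1.43-fold lower (limma adjusted p = 1e-04). Pgap3, which remodels the anchor's lipid, was 1.58-fold lower (limma adjusted p = 0.0017), by 0.35 in place of 0.66 without background correction.

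Gpld1, a phospholipase that cuts the anchor, averaged 5.88 in KO and 5.25 in CON, where it was detected on 2 of the 4 arrays. Its difference was 0.63 (limma adjusted p = 0.0034), and 0.20 without background correction, so its size is uncertain. The zinc carrier Slc30a7 was 1.29-fold higher (limma adjusted p = 0.0011), and median scaling ended its call (limma adjusted p = 0.068). Its second probe rose by 0.54 ± 0.09 (SE, limma adjusted p = 4e-04). Slc30a5 and Slc30a6, the zinc carriers that pair in the secretory pathway, did not pass, with differences of 0.08 and -0.13. These turned to -0.08 under median scaling for Slc30a5 and to 0.03 under cyclic loess for Slc30a6. Under median scaling Slc30a6 was called lower, at -0.24.

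The hormone axis that sets phosphate in blood and the partners of Phex had 6 tested genes, 3 higher, 2 lower and 1 not past. Fgfr1, a receptor through which the hormone FGF23 acts, stood at 7.84, 7.50, 7.40 and 7.55 on the KO arrays, against 9.31, 9.18, 9.19 and 9.11 on the CON arrays. It was 3.09-fold lower (limma adjusted p = 4.2e-07), and its second probe fell by 1.47 ± 0.16 (SE). Fgfr3 went the other way, 7.62 in KO and 6.99 in CON (1.56-fold higher, 0.38 in place of 0.64 without background correction).

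Pth1r, the receptor for parathyroid hormone, averaged 7.85 in KO and 7.07 in CON (limma adjusted p = 0.00011). Of its 3 tested probes 2 passed, and without background correction the rise was 0.49 in place of 0.78. Mepe, a bone matrix protein that Phex binds, rose with Phex, to 6.11 in KO, against 5.56 in CON, where 3 of the 4 arrays detected it (limma adjusted p = 0.0017), by 0.20 in place of 0.55 without background correction. Fgf23 and its co-receptor Kl were not detected on any array.

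Phex belongs to the M13 peptidases, of which 6 others were listed and 3 tested. None of the 3 rose, 2 fell and 1 did not pass. Mme (neprilysin) stood at 9.45, 9.09, 9.07 and 8.89 on the KO arrays, against 10.66, 10.93, 10.86 and 10.90 on the CON arrays, and was 3.28-fold lower (limma adjusted p = 9.9e-07). Ece1, which activates endothelins, averaged 12.04 in KO and 12.70 in CON, 1.57-fold lower (limma adjusted p = 0.00044), and its second probe was lower as well. Phex was thus higher in KO while 2 relatives of it were lower.

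**Figure D4:**
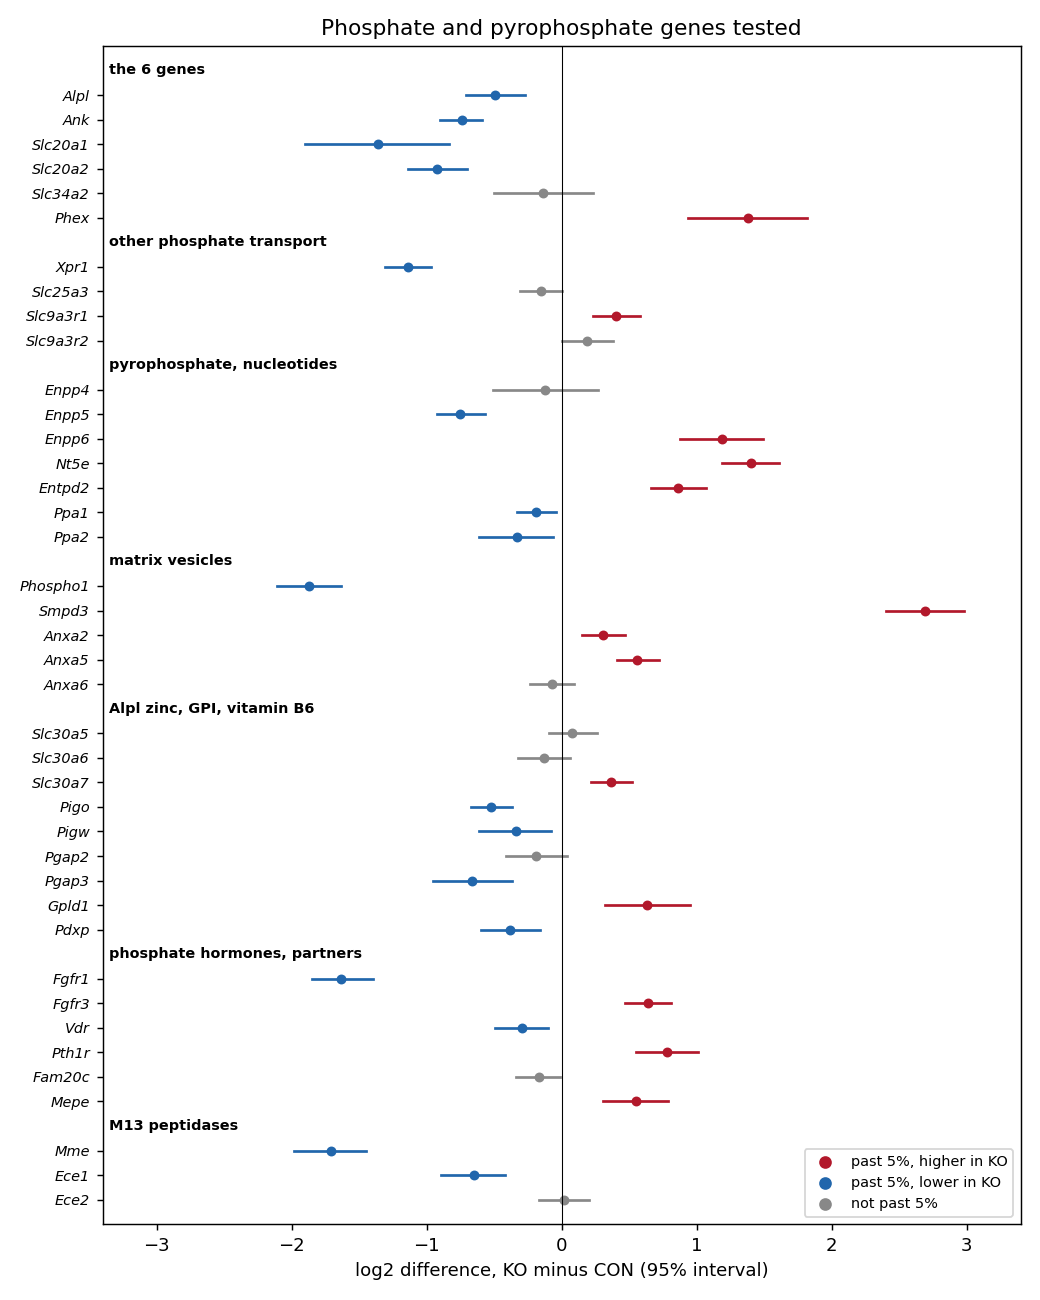
Log2 difference of KO minus CON (horizontal axis, points) with its 95% interval (bars) for the 6 genes and the 34 tested genes of the 6 related lists, red where past 5% and higher in KO, blue where past 5% and lower, grey otherwise. Every list but the M13 peptidases holds genes on both sides of 0 that passed.

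The genes with the pattern most like that of each gene over the 8 arrays are given as a description, by Pearson's r of log2 levels over 9084 genes, with no test. The 8 arrays fall in the same 2 groups for every gene, so a gene that differs between the groups can reach a high r with any other that does. Ank was followed most closely by Gpx2, Sh3gl2 and Gstp2 (r = 0.997 each), with 873 genes above 0.95. Slc20a2 had Ift27 and Slc6a3 (0.995 each) and Lamb3 (0.993), with 442 above 0.95. Fewer genes were that close to Alpl (71, led by Stag2, Svep1 and Zfp688 at 0.982 to 0.983), to Phex (84, led by Actn3, Alas2 and Slc6a12 at 0.978 to 0.985) and to Slc20a1 (37, led by Zfp386, Hsf4 and Orai1 at 0.976 to 0.988).

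Actn3, the gene closest to Phex, is a protein of fast muscle fibres from the muscle list. Slc34a2 had 1 gene above 0.95, Nudcd3 (0.955), then Sephs2 (0.909) and Mfsd1 (0.894). Within groups, deviations of the 6 genes from their group means gave r between -0.65 and 0.59 over the pairs of genes.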

How the data were processed

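Total RNA of Mat tissue was labelled and hybridised to MouseRef-8 bead arrays. The authors summarised beads in GenomeStudio, with a version not given in the sources used here. Without normalization, the deposited intensity of 25697 probes is a linear mean over beads, and each has a deposited detection p-value against negative control beads. In a second deposited table the intensity was normalized between arrays by the authors.

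The first table was used, with the neqc function (limma 3.58.1, R 4.3.3) for background, an offset of 16, quantile normalization and log2. Probes with detection p under 0.01 on at least 4 of 8 arrays were tested with lmFit and eBayes, two-sided, without covariates. The Benjamini-Hochberg adjustment ran over all 12838 tested probes, and the threshold was 5%. Adjusted p-values without another test named come from limma. The number of arrays limits the precision.

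Symbols came from the platform annotation, and 1719 probes are unnamed here. The brightest probe stood for a gene. Named genes were those of the list, up to 4 called genes of each related list by moderated statistic, the 3 genes most like each in pattern, Med1 and up to 2 genes of a marker list, and others are marked or counted. The genes and lists were chosen with earlier results of these data known, and tests over the lists were not made. Alternatives were other background corrections, scalings, filters and variance models, the deposited normalized values, a block for the replicate number, single arrays left out, and the methods' t-test. Promoters came from RefSeq, and no Slc20a2 entry was used. Figures were drawn with matplotlib 3.10.9.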

Additional observations from a re-analysis of the deposited data

Results flagged for a closer look

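The level of Slc34a2 on KO arrays was marked because 1 array lay far from the other 3. The first KO array read 7.65, against 8.10 to 8.12 on the others, and this gap took up 0.963 of the group's range, above Dixon's critical value for 4 samples. Without that array the difference of KO minus CON was -0.03 (limma adjusted p = 0.9) in place of -0.14. Of 12 groups looked at in this way 1 was marked, and chance marks about 1 in 20.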

How the results depend on the processing

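Over 18 alternatives Alpl ranged from -0.66 to -0.41, Ank from -0.92 to -0.67, Slc20a2 from -1.09 to -0.84, Slc20a1 from -1.54 to -0.56 and Phex from 0.59 to 1.58, with the call kept in each that tested them. Where detection on all 8 arrays was required, 3 of the 4 genes then tested were called, since Slc20a1 and Phex were no longer tested. Slc34a2 turned to 0.05 under cyclic loess (limma adjusted p = 0.84) and ranged from -0.29 to -0.03 with single arrays left out. The number of probes called ran from 6566 to 7948. With the replicate number as a block it was 7390, and all of the 5 called genes stayed called. The numbers did not pair the arrays (correlations of deviations -0.011 to 0.019, and no array correlated best with its own number). On the deposited normalized values the methods' t-test called 5212 probes at the methods' p threshold, 1858 with their fold threshold as well and 7193 after Benjamini-Hochberg. Of the 6 genes 5 passed that p and 3 (Ank, Slc20a2 and Phex) the fold as well. Each of the 6 has 1 probe, so the mean of a gene's probes was not run. Signal over background limits Slc20a1 and Phex.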

Other observations

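Some genes of the related lists, named here after their values were seen, passed with small differences. Pdxp, the phosphatase of vitamin B6 phosphate, averaged 7.20 in KO and 7.58 in CON (limma adjusted p = 0.0079), and cyclic loess ended its call with a difference of -0.14 (limma adjusted p = 0.26). Vdr, the vitamin D receptor, averaged 10.06 in KO and 10.35 in CON (limma adjusted p = 0.016), which likewise was not past the threshold under cyclic loess (limma adjusted p = 0.097). Its other probes gave -0.28 (limma adjusted p = 0.0099) and -0.15 (limma adjusted p = 0.3), the latter not past the threshold. Pigw, an enzyme of GPI anchor synthesis, averaged 5.96 in KO and 6.30 in CON (limma adjusted p = 0.029) and lost its call in 11 alternatives.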
